A study of Mus musculus with 5 samples.

Results

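The genes described here encode the proteins of the cytosolic ribosome. Their probe sets were found by a pattern of gene symbols in the platform annotation, Rpl or Rps followed by a number and at most 1 of the letters a, x and y, which leaves out mitochondrial ribosomal proteins and the S6 kinases. Of 18193 genes with a probe set of a single symbol, 39 matched, 20 of the large and 19 of the small subunit, through 90 probe sets, and the brightest probe set, by the mean over all arrays, stood for each gene. The 5 mouse arrays, of an Affymetrix platform, hold 4 medulloblastomas, which are cerebellar tumours, and 1 normal P5 cerebellum (P5 being read as postnatal day 5). The series title names tumours from Cxcr6 mutant mice and a Smoothened inhibitor, but the labels of the single arrays give no genotype, strain, treatment or tumour age, so every comparison sets tumours of unstated origin against a single normal sample. RNA came from Trizol for all samples but medulloblastoma 4, whose label names only the manufacturer's standard protocol. The prefix ken opens the titles of medulloblastomas 1 and 2, and hmk those of the other 3 arrays; what these mean is not stated. Nothing says whether tumours came from separate mice, so p-values measure the spread between these 4 tumours. They hold nothing on variation between cerebellum samples.

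A ribosome joins a small subunit, which reads the messenger RNA, to a large subunit, which forms the peptide bond. Each subunit is ribosomal RNA bound to many proteins needed in about equal numbers, so their genes are usually expressed in step. Their messengers begin with an unbroken run of pyrimidines, the terminal oligopyrimidine or TOP tract, through which the kinase mTOR controls their translation. Growing cells make ribosomes in large amounts, and Myc proteins, among them the Mycn of granule neuron precursors, are known to drive that production.

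The start of the transcript is shown for 8 of these genes because it is where a TOP tract would lie, a feature the choice of genes did not use. RefSeq promoters of GRCm38.p6 were held for 34 of the 39 genes, 40 promoters in all. The tract was searched on the sense strand as a C followed by at least 5 C or T without a break, beginning within 20 bases of the annotated start. It was found in 26 of the 40 promoters (65%), against 32.5% of all 32851 promoters in the table. A C at the annotated first base followed by at least 5 C or T was found in 7 of the 40 (17.5%), against 1.70% of all promoters. Among genes with a mean array signal of at least 3000, the median log2 difference between tumours and cerebellum was 0.52 for the 17 with a tract and 0.36 for the 9 without. These values describe the sequences and were not tested, and an annotated start can lie some bases from the one used in these cells. Each line runs from 20 bases before the first transcribed base to 20 after it, 5′ to 3′, with the tract in capitals. The first 4 genes meet the stricter criterion at the first base, Rps9 and Rpl7a only the wider one, and Rpl37a and Rps28 hold none in this window.
Rpl35, chr2:39005111-39005151, minus strand: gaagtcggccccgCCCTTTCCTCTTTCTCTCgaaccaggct
Rpl38, chr11:114668560-114668600, plus strand: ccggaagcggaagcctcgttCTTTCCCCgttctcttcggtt
Rps10, chr17:27635224-27635264, minus strand: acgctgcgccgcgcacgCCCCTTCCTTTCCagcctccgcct
Rps18, chr17:33955645-33955685, minus strand: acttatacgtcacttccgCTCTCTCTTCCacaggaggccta
Rps9, chr7:3704021-3704061, plus strand: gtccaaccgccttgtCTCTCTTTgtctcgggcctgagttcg
Rpl7a, chr2:26910787-26910827, plus strand: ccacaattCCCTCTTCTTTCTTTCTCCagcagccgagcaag
Rpl37a, chr1:72711240-72711280, plus strand: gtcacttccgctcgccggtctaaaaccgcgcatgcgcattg
Rps28, chr17:33824542-33824582, minus strand: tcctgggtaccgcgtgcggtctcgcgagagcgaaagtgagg

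Most ribosomal protein genes lay modestly above the P5 cerebellum in each tumour. The signals, linear intensities that had been scaled to the same trimmed mean of 500 on each array, separated the genes into a group of 31 with a mean of at least 3000 and a group of 8 below it. This limit was chosen after the values were seen; Rpl37, at a mean of 3795, is nearest to it from above and Rpl27a, at 1784, from below. In the bright group 26 of 31 genes (83.9%) lay above the cerebellum in all 4 tumours and 0 lay below it in all 4, against 25.1% and 30.8% of the 14109 genes tested. The median difference of the bright group, tumour minus cerebellum, was 0.49 on the scale of log2(signal + 32), a ratio of 1.40, and the medians in medulloblastomas 1 to 4 were 0.48, 0.41, 0.49 and 0.53. Over the 38 of 39 genes that reached the mean signal of 100 needed for the test, the median was 0.45, with 28 above the cerebellum in every tumour and 2 below. The median was 0.51 for the large and 0.41 for the small subunit, and -0.07 for all genes tested. Summed, all 39 genes took between 4.09% and 4.33% of the signal of all named genes in the tumours and 3.25% in the cerebellum.

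No ribosomal protein gene passed the test singly. With limma, 0 of 38 were called higher and 0 lower at a Benjamini-Hochberg adjusted p under 0.05 over all genes, where 0.312% of genes were called higher and 0.177% lower. At an unadjusted p under 0.05, 17 were higher and 1 lower, against 7.72% and 7.44% of all genes. The fit takes its spread from the 4 tumours, and with 1 array on one side the smallest p of an exact permutation test is 0.2. Differences below are therefore given as values, with the standard error of the fit after ±.

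**Figure D1:**
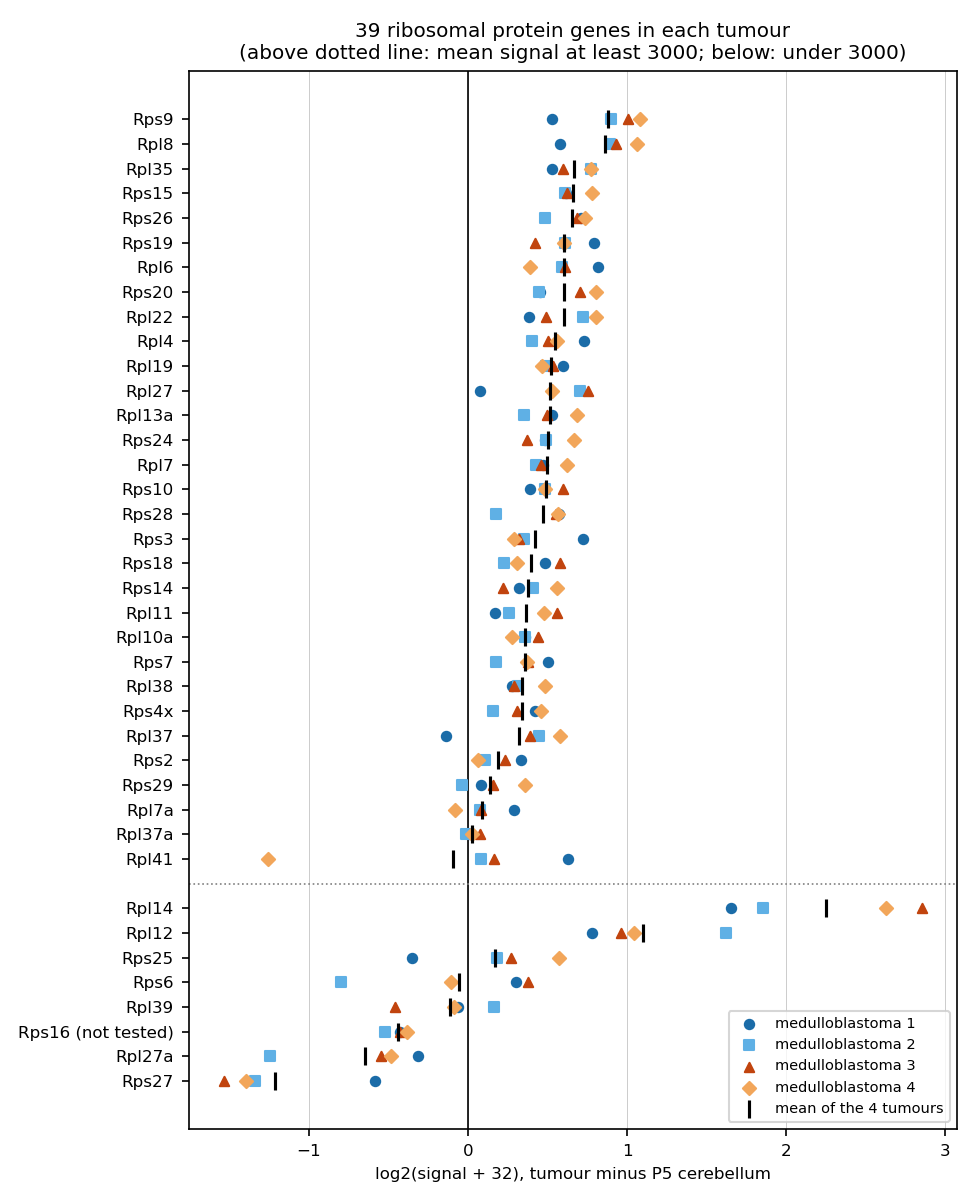
Difference of each of the 39 ribosomal protein genes from the P5 cerebellum (x axis, log2 scale) in each of the 4 medulloblastomas (symbols) and their mean (vertical tick), with genes of mean signal under 3000 below the dotted line. In the upper group 26 of 31 genes have all 4 tumours right of 0, and Rpl41 in medulloblastoma 4 stands far to the left; the lower group spreads to both sides.

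Other bright genes also lay above the cerebellum more often than genes overall. Among 118 other genes that averaged at least 10000, 48.3% lay above the cerebellum in all 4 tumours, 14.4% lay below it in all 4, and the median difference was 0.15. For the 1022 other genes of at least 3000 these values were 44.6%, 17.1% and 0.18. For the 30 ribosomal protein genes of at least 10000 the median was 0.49, and 26 were above in all 4. Within the 31 bright ones the difference did not grow with signal (Pearson's r = -0.28 and Spearman's rho = -0.44 against the log2 mean signal, a description across genes that share their arrays). After quantile normalization, which gives every array the same distribution, the medians were 0.19 for the 38 ribosomal protein genes, -0.03 for the other bright genes and -0.04 for all genes, and 19 of the 38 were above the cerebellum in every tumour and 5 below. Scaled to equal medians instead, the median of all genes was 0.12 and that of the 38 was 0.64. The distance between them, 0.51 as scaled by the authors, was then 0.52, and it was 0.22 after quantile normalization. A signal's place among the 18193 genes of its own array needs no scaling: 20 of the 31 bright genes held a higher place than in the cerebellum in all 4 tumours and 1 a lower place in all 4, against 28.6% of all genes tested with a higher place. How often other bright genes held a higher place, or all genes a lower one, is not given. The median place of the 31 was between the 99.75th and the 99.84th percentile on the 5 arrays, so there was little room above them.

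**Figure D2:**
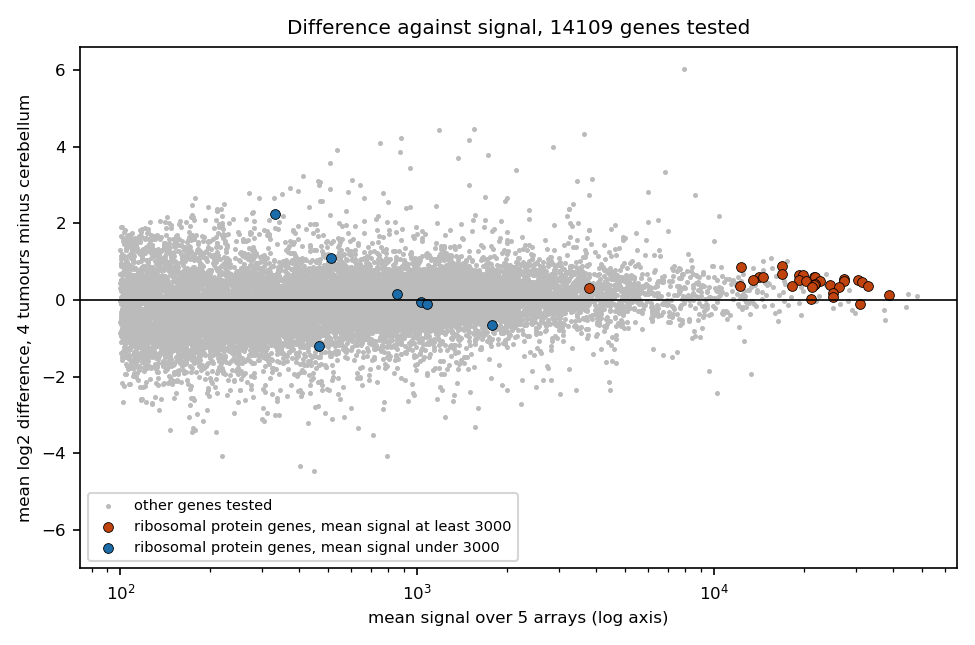
Mean difference of the 4 tumours from the cerebellum (y axis, log2 scale) against the mean signal of each gene over the 5 arrays (x axis, log axis) for the 14109 genes tested, with the ribosomal protein genes in colour. The bright group clusters at the right between -0.09 and 0.88, whereas the dim group lies between -1.21 and 2.25.

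Among bright genes of the large subunit, Rpl8 lay furthest above the cerebellum. Rpl8, part of the core around the peptide-bond centre, read 10986, 13659, 14040 and 15388 in medulloblastomas 1 to 4 against 7354, a difference of 0.86 ± 0.23 (SE; limma, adjusted p = 0.152). All 4 tumours are above the cerebellum, and medulloblastoma 1 is the lowest of them. Rpl35, a protein at the exit of the peptide tunnel, read 16567, 19668, 17441 and 19713 against 11492, a difference of 0.67 ± 0.20 (adjusted p = 0.196). Again no tumour overlaps the cerebellum. Rpl6 differed by 0.60 ± 0.21 and Rpl22, whose loss is best known for blocking T cell development, by 0.60 ± 0.22. Rpl4, which reaches into the tunnel, differed by 0.55 ± 0.19. Rpl19, with signals of 21643, 20084, 20733 and 19812 against 14308, differed by 0.52 ± 0.18 and was among the members that varied least between tumours (SD 0.06 on the log2 scale). Rpl13a, which also acts as a repressor of translation in inflamed cells, differed by 0.52 ± 0.19, and Rpl7 by 0.49 ± 0.18. Rpl11, which binds the p53 regulator Mdm2 when ribosome assembly is disturbed, read 11157, 11839, 14581 and 13790 against 9892 and differed by 0.37 ± 0.22. Rpl10a of the mobile stalk differed by 0.36 ± 0.18 and Rpl38, needed for translation of a set of Hox messengers in the embryo, by 0.34 ± 0.18. In these 11 of the 16 bright large subunit genes every tumour exceeded the cerebellum. The other bright ones are described further on.

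Among bright genes of the small subunit, Rps9 came first. Rps9, an early binder of the ribosomal RNA, read 14436, 18742, 20188 and 21242 against 10017, a difference of 0.88 ± 0.24 (limma, adjusted p = 0.172). As for Rpl8, the groups do not overlap and medulloblastoma 1 is the lowest tumour. Rps15, near the decoding site, read 20274, 20141, 20305 and 22665 against 13183, a difference of 0.66 ± 0.18 (adjusted p = 0.174). Rps26, at the exit of the messenger channel, differed by 0.65 ± 0.19. Rps19, whose human counterpart is the gene most often mutated in Diamond-Blackfan anaemia, differed by 0.61 ± 0.21 with the highest signal, 17279, in medulloblastoma 1 against 9956 in the cerebellum. Rps20 differed by 0.60 ± 0.21, Rps24 by 0.50 ± 0.19 and Rps10 by 0.49 ± 0.18. Rps28 read 35751, 27156, 35261 and 35585 against 23987 and differed by 0.47 ± 0.22, with medulloblastoma 2 apart from the other tumours. Rps3, which lines the entry of the messenger channel, differed by 0.42 ± 0.22, Rps18 by 0.40 ± 0.20, Rps14 by 0.38 ± 0.20, Rps7 by 0.36 ± 0.19 and the X-linked Rps4x by 0.34 ± 0.20. In each of these 13 of the 15 bright small subunit genes all tumours lay above the cerebellum. The other bright ones follow.

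Apart from Rpl41, the bright genes with the smallest mean differences were Rps2, Rps29, Rpl7a and Rpl37a. Rps2, with 28435, 24360, 26552 and 23617 against 22551, was above it in every tumour by a mean of 0.19 ± 0.19, which became -0.11 after quantile normalization. Rpl7a read 29137, 25047, 25171 and 22445 against 23782 (0.09 ± 0.20) and the zinc-binding Rps29, with the highest mean signal of the group, read 37682, 34704, 39783 and 45627 against 35599 (0.14 ± 0.20). In both, 1 tumour lies below the cerebellum. Rpl37a, another zinc-binding protein, read 21053, 20615, 21949 and 21182 against 20815, so that tumours and cerebellum overlap, with a difference of 0.03 ± 0.18 and the smallest SD between tumours of the bright group (0.04). The signs of Rpl7a and Rpl37a turned after quantile normalization, to -0.20 and -0.31. In Rpl37 and Rpl27 medulloblastoma 1 differed from the other tumours. Rpl37 read 2834, 4262, 4093 and 4668 against 3115 (0.32 ± 0.29), with medulloblastoma 1 below the cerebellum. Rpl27 read 10479, 16171, 16790 and 14357 against 9925 (0.52 ± 0.28), and medulloblastoma 1 is close to the cerebellum while the others are well above.

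Rpl41, which encodes the smallest ribosomal protein, varied most between tumours. It read 46718, 31891, 33717 and 12628 against 30128, a difference of -0.09 ± 0.58. Medulloblastoma 4 lies far below the cerebellum and medulloblastoma 1 well above it. Its second bright probe set gave 30123, 15819, 15788 and 13204 against 16818, with the same highest and lowest tumours, but medulloblastoma 4 close to 2 others. Its pair of dim probe sets had differences of 1.17 and 0.42, so the sign of Rpl41 depended on the probe set, and without medulloblastoma 4 its difference was 0.29.

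The 8 dim genes, so named by the signal of their probe sets, showed no common direction. All 8 were measured by probe sets of the plain kind, ending in at with no further letter, as were 3 of the 31 bright ones. Rpl14, a large subunit gene, read 238, 278, 588 and 499 against 53.8, a difference of 2.25 ± 0.53 (limma, adjusted p = 0.125) and the only one of at least 2-fold in every tumour among the 39 genes. Its cerebellum signal lies below the mean of 100 needed for the test, which it reached through the tumours, and its difference was 2.63 with a constant of 8 and 1.48 with a larger constant than 32. Rpl12, at the base of the stalk that binds elongation factors, read 445, 823, 509 and 541 against 246 (1.10 ± 0.37, adjusted p = 0.249). In the other direction, the zinc-binding Rps27 read 565, 322, 277 and 308 against 862 (-1.21 ± 0.41, adjusted p = 0.249) and Rpl27a read 1980, 1027, 1682 and 1759 against 2471 (-0.65 ± 0.35); for both, every tumour is below the cerebellum. Rps25 (0.17 ± 0.36), Rpl39 (-0.11 ± 0.29) and Rps6 (-0.06 ± 0.44), the protein phosphorylated by S6 kinases, had tumours on both sides of the cerebellum. Rps16 was not tested, with signals between 2.59 and 6.09 in the tumours and of 17.6 in the cerebellum. Which part of the transcript these dim probe sets bind was not known here. Probe sets of a single gene can differ widely in signal, as for Rps3 with means of 21930, 1126 and 171. A dim probe set therefore need not give the level of its gene.

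Probe sets of the same gene mostly gave the same direction where they were bright. The 21 genes with more than 1 probe set had 51 others, 33 of them with a mean of at least 3000. Of these 33, 25 lay above the cerebellum in all 4 tumours, 0 below in all 4 and 8 were mixed, with a median of 0.57. Among the 1022 other genes of at least 3000, 44.6% lay above in all 4 and 17.1% below. The 18 dim probe sets had a median of -0.03, with 5 above in all tumours and 3 below, against 25.1% and 30.8% of all genes tested. All 4 probe sets of Rpl13a were bright and above in every tumour, at 0.52, 0.57, 0.71 and 1.18. For Rpl37a the second probe set, unlike the first, was above in every tumour, at 13804, 17161, 16885 and 16833 against 10226 (0.65), and the dim last one was below in every tumour, at 1011, 667, 293 and 866 against 1068 (-0.70). For Rps9 a second probe set went the other way, at 544, 804, 8220 and 1328 against 5687 (-1.91), with medulloblastoma 3 and the cerebellum high and the others low, whereas the remaining dim one was higher, at 516, 674, 346 and 459 against 226. With all its probe sets averaged the difference of Rps9 was -0.01. For Rpl22 the others stood at 0.10 and -0.03, and for Rps3 they stood at 0.26 and -2.02, both dim, which brought the mean of all Rps3 probe sets to -0.45. With probe sets ending in x_at or s_at left out, which removed 5 of the 38 genes, Rps20 and Rps24 were left with dim ones at -0.17 and -0.18.

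**Figure D3:**
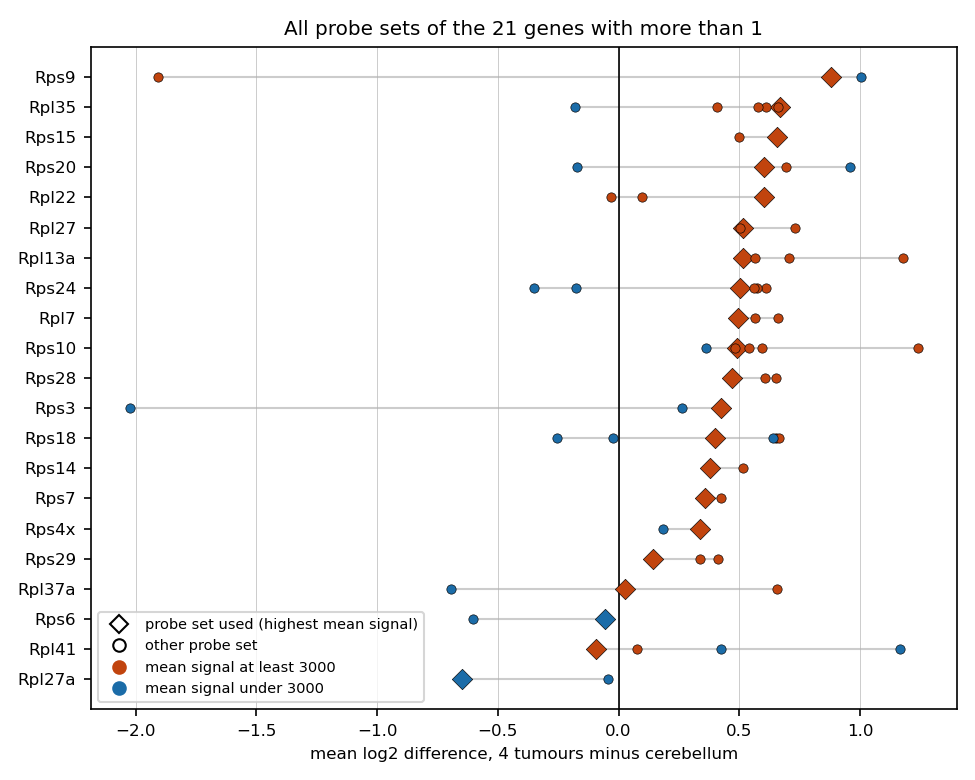
Mean difference of the 4 tumours from the cerebellum (x axis, log2 scale) at every probe set of the 21 ribosomal protein genes that have more than 1, with the probe set used as a diamond and colours for a mean signal of at least or under 3000. Most bright probe sets gather between 0.3 and 0.8; the exceptions include Rps9 at -1.91 and Rpl22 near 0.

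Many ribosomal protein probe sets carry several symbols, and none of these was named. There were 109 whose symbols include at least 1 matching the pattern, covering 41 genes, 26 of which are not among the 39. Of 81 with a mean signal of at least 3000, 69 lay above the cerebellum in all 4 tumours, 11 were mixed and 1 was below in all. Their median difference was 0.47, close to the 0.49 of the bright group. Among the 1022 other genes of at least 3000, 44.6% lay above in all 4 and 17.1% below. Several probe sets can bind 1 transcript and a transcript can bind several, so these are no independent count of genes.

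Within the bright group the tumours differed in how they spread with signal. Medulloblastoma 1 was the highest tumour for 10 of the 31 genes and the lowest for 9, and medulloblastoma 4 the highest for 15 and the lowest for 7. Relative to the mean of the other tumours, medulloblastoma 1 was lower at the less bright and higher at the brighter genes, with Pearson's r = 0.61 (Spearman's rho 0.55) between this difference and the log2 mean signal across the 31 genes. It was 0.63 without Rpl41 and 0.61 without Rpl37 and Rps29, the genes furthest from the median signal. For medulloblastomas 2, 3 and 4 r was -0.52, -0.06 and -0.30. The points share their arrays and the mean signal includes the tumour described, so r is a description of genes and not of replicates. Across 1022 other genes with a mean of at least 3000, r for medulloblastoma 1 was 0.06. RNA integrity was gauged by control probe sets at both ends of a transcript, and their 3′/5′ ratios were highest on that array: 1.45 for actin and 0.946 for Gapdh, against 1.21 to 1.35 and 0.731 to 0.824 on the others. The part of these ratios in the pattern was not tested.

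**Figure D4:**
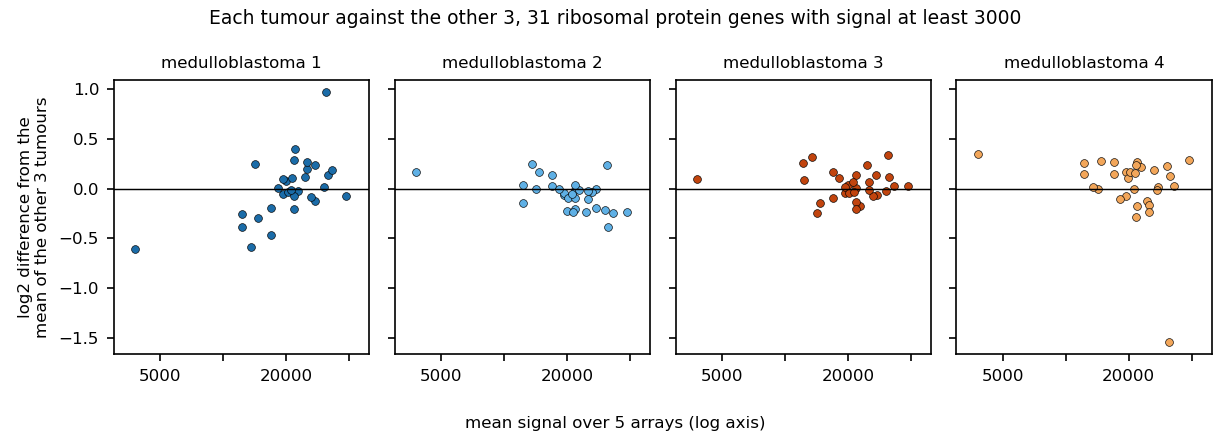
Difference of each medulloblastoma from the mean of the other 3 (y axis, log2 scale) against the mean signal over the 5 arrays (x axis, log axis) for the 31 bright ribosomal protein genes, 1 panel a tumour. Points rise from left to right in medulloblastoma 1 and slope downwards in medulloblastoma 2; the isolated low point in medulloblastoma 4 is Rpl41.

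Tumours with ken and with hmk titles gave like medians. The difference between the prefix means, hmk minus ken, had a median of 0.09 over the 31 bright genes and was above 0 in 22. In 7 genes both hmk tumours exceeded both ken tumours and in 2 genes the reverse held. The share of all genes that separate in this way is not given, so the counts cannot be read as a trait of these genes. This contrast was not tested. Which tumours were in the fit did decide the calls. Among the genes called below, Rpl14 read 53.8 in the cerebellum and reached the mean signal needed for the test only through the tumours. Its place in the counts is therefore not independent of its difference. Rps9 was called on its brightest probe set, while another bright one differed by -1.91 with all tumours in the fit. Within the hmk arrays alone, where the spread comes from a pair of tumours, 16 ribosomal protein genes were called higher and Rps27 lower (limma, adjusted p under 0.05), against 5.93% and 5.96% of all genes. Rps9 (1.05 ± 0.14, adjusted p = 0.00117) and Rpl8 (0.996 ± 0.15, adjusted p = 0.00228) led the bright genes there, and all 16 but Rpl14 were bright. Without medulloblastoma 1, 5 were called higher and 1 lower, against 3.18% and 2.71% of all genes: Rpl14, Rps9, Rpl8, Rpl35 and Rps15, and Rps27. Without any other single tumour, and with the ken tumours against the cerebellum, 0 were called in either direction (limma), with 7 to 15 higher at an unadjusted p under 0.05.

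Cytosolic ribosomal proteins whose symbols lie outside the pattern lay above the cerebellum as well. Rplp2, an acidic protein of the stalk, read 34570, 22154, 23821 and 22168 against 15843 (0.67 ± 0.27). Fau, which encodes a small subunit protein fused to a ubiquitin-like one, differed by 0.40 ± 0.19, Rpsa by 0.34 ± 0.18 and Rplp0, the base of the acidic stalk, by 0.26 ± 0.19. In these 4 genes each tumour exceeded the cerebellum, and 0 were called (limma; 1 at an unadjusted p under 0.05). The sign of Rpsa turned to -0.01 after quantile normalization. Each tumour exceeded the cerebellum in 25.1% of all genes tested, and in 48.3% of the 118 genes of at least 10000 outside the pattern.

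Of 8 listed paralogs, which encode close relatives of a ribosomal protein, 4 were tested. Rpl7l1 (0.71 ± 0.32), Rps27l (0.61 ± 0.31), a p53-induced relative of Rps27, and Rpl22l1 (0.37 ± 0.24) were above the cerebellum in every tumour. Rps4l, the autosomal relative of Rps4x, stood far below: its signals were 132, 7.80, 9.28 and 10.1, against 938. The groups do not overlap, and medulloblastoma 1 lies above the other tumours. It reached the mean signal needed for the test only through the cerebellum. Its log2 difference was -4.06 ± 0.99 (limma, adjusted p = 0.129) with the constant of 32, -5.03 with a constant of 8 (adjusted p = 0.247) and -2.73 with a larger one, under which it was called lower (adjusted p = 0.0460). It was also called lower without medulloblastoma 1 (-4.56, adjusted p = 0.0215) and in the hmk arrays alone (adjusted p = 0.00611). In the same arrays Rps4x itself read 23515, 19611, 21786 and 24146 against 17551. Rps4l had 1 probe set, and with 3 tumours at signals below the constant neither the size of its difference nor its call is firm.

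With the authors' scaling, genes that make ribosomes or share the TOP tract had medians near that of the ribosomal protein genes. After quantile normalization only the TOP factors did, at 0.21 against 0.19, while the medians were 0.50 for ribosome assembly and 0.47 for RNA polymerase I. Beside the counts that follow, 25.1% of all genes tested lay above the cerebellum in every tumour and 30.8% below. The 15 measured translation factors and related genes known for TOP messengers had a median of 0.44, with 11 above the cerebellum in every tumour, 0 below and none called. Their largest differences were those of the poly(A)-binding protein gene Pabpc1 (11342, 17484, 19354 and 16983 against 7834, 1.03 ± 0.29), the nucleolar chaperone gene Npm1 (0.88 ± 0.25) and the elongation factor gene Eef1d (0.77 ± 0.26, but -0.09 with its probe sets averaged). The 39 genes of ribosome assembly and the nucleolus had a median of 0.49, with 24 above in every tumour and 6 below. Ebna1bp2 (1.08 ± 0.28), Nolc1 (1.03 ± 0.29) and Nop58 (0.98 ± 0.31), a core protein of the particles that methylate ribosomal RNA, were the furthest. Medulloblastoma 1 was lower here, with a list median of 0.20 where the other tumours had 0.55 to 0.64. The 18 genes of RNA polymerase I, which transcribes ribosomal RNA, and its factors had a median of 0.42, with 11 above and 1 below, led by the subunit gene Cd3eap (1.11 ± 0.39). For Polr2e, a subunit shared by the polymerases, the 0.77 ± 0.24 turned to -0.51 without x_at and s_at probe sets and -0.08 with all averaged.

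Initiation factors had a median of 0.18 over 18 genes, with 8 above in every tumour (44.4%, against 25.1% of all genes) and 0 below. Eif4ebp1, the inhibitor of cap-dependent translation that mTOR switches off, stood apart among them with 1287, 1198, 720 and 557 against 193, a difference of 2.03 ± 0.46 (limma, adjusted p = 0.117). Eif3b differed by 0.52 ± 0.26 and Eif2s3x by 0.39 ± 0.24. Over 76 mitochondrial ribosomal protein genes the median was 0.09. Of these, 23 lay above the cerebellum in every tumour (30.3%, against 25.1% of all genes) and 13 below (17.1%, against 30.8%). Their largest differences were 0.79 ± 0.24 for Mrpl51, 0.78 ± 0.27 for Mrpl35 and 0.77 ± 0.30 for Mrps28. By limma 0 genes of these 5 lists were called. At an unadjusted p under 0.05 (limma), 6 of 15 TOP factors, 10 of 39 assembly genes and 5 of 18 RNA polymerase I genes were higher. So were 1 of 18 initiation factors and 5 of 76 mitochondrial ribosomal protein genes, the last list with 1 lower. Over all genes tested the shares were 7.72% higher and 7.44% lower. Without medulloblastoma 1, limma called Pabpc1 (1.19, adjusted p = 0.00637), Npm1, Eif4ebp1, Ebna1bp2, Nolc1, Nop58, Polr1a and Mrpl51 higher among the 3 genes of each list chosen by difference. These genes had been picked by their differences in the same arrays, so the calls add no separate evidence. In that fit 3.18% of all genes were called higher. The differences between lists were not tested.

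**Figure D5:**
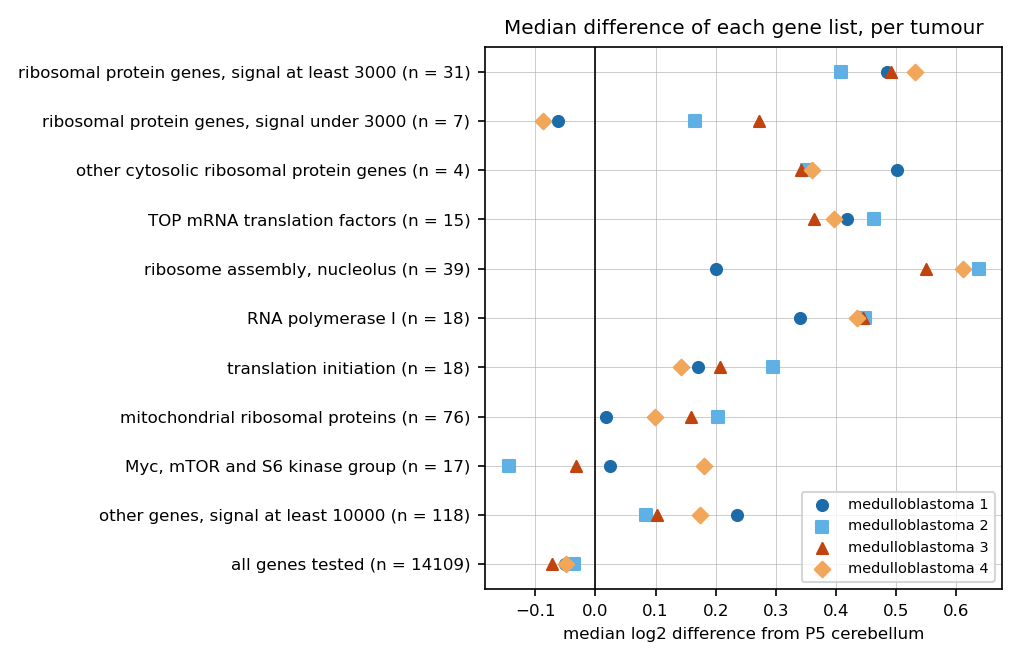
Median log2 difference from the P5 cerebellum (x axis) of each gene list in each of the 4 tumours (symbols), with the number of genes tested in brackets. Bright ribosomal protein genes lie between 0.41 and 0.53 in every tumour, mitochondrial ribosomal proteins between 0.02 and 0.20, and all genes tested between -0.07 and -0.04.

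Regulators upstream of ribosome production had a median of 0.05 over 17 genes, with 5 above the cerebellum in every tumour and 5 below. Each is 29.4% of the list, near the 25.1% above and 30.8% below for all genes tested. None was called, with 3 higher and 1 lower at an unadjusted p under 0.05 (limma), against 7.72% and 7.44% of all genes. Myc read 329, 746, 1333 and 874 against 241, a difference of 1.49 ± 0.61 (limma, adjusted p = 0.307). All tumours are above the cerebellum, medulloblastoma 1 only slightly. Mycn differed by 1.01 ± 0.23 (adjusted p = 0.115), which became -0.07 with its probe sets averaged. Without medulloblastoma 1 limma called both higher, Myc at 1.85 (adjusted p = 0.0215) and Mycn at 1.09 (adjusted p = 0.0118). In that fit 3.18% of all genes were called higher. Larp4, an RNA-binding protein that acts with the poly(A) tail, differed by 0.83 ± 0.28. The 5 genes below the cerebellum in every tumour, named after their values were seen, were Tsc2 (-0.74 ± 0.27), an inhibitor of mTOR signalling, the mTOR complex genes Mlst8 (-0.62 ± 0.30), Mtor (-0.50 ± 0.36) and Rptor (-0.30 ± 0.30), and the kinase gene Rps6ka3 (-0.31 ± 0.26). Mtor and Rptor were within 0.02 of the cerebellum in medulloblastoma 1.

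The makeup of the samples also differed, and in bulk RNA fewer cells of a type and less RNA per cell cannot be told apart. Cerebellar identity genes gave summed signals from 41443 to 45045 in the tumours, against 49235, but the genes differed in direction, and of 9, all tumours were above the cerebellum in 2 and below it in 6. Atoh1, of granule neuron precursors, differed by 2.81 ± 0.40 and Barhl1 by 0.97 ± 0.24. Neurod2 (-1.80 ± 0.65), Pax6 (-1.02 ± 0.34) and Neurod1 (-0.81 ± 0.23) were below. En1 was below in every tumour as well (-2.57 ± 0.95), but its signals were low on every array, at 1.47 to 121 against 389. Cell cycle genes summed to 72275 to 83421 against 43336, and 12 of 13 were above in every tumour. For microglia and macrophages the sums were 24848 to 30788 against 8767, with 13 of 14 above. In the opposite direction, astrocyte genes summed to 29310 to 31107 against 72433, with 6 of 10 below in every tumour and 2 above, and fibroblast and meningeal genes to 13398 to 18079 against 37827, with 7 of 10 below. Endothelial genes summed to 3407 to 4594 against 7384 (9 of 10 below), and Purkinje cell genes to 9295 to 30286 against 41186 (5 of 8 below). Mature granule neuron genes, at 15431 to 51617 against 18697, were highest in medulloblastoma 1, as the Purkinje genes were among the tumours. Of the 10 granule neuron genes, 4 were above in every tumour and 0 below, from Gabra6 at 3.99 ± 0.63 to Syt1 at -1.34 ± 0.70. Over all genes tested, 25.1% lay above in every tumour and 30.8% below. None of these lists had a summed signal at or near 0, and their part in the ribosomal protein differences was not tested.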

How the data were processed

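The deposited values are linear signal intensities, 1 per probe set and array. The submitters' processing notes name MAS5 for 4 arrays; for medulloblastoma 3 the tool is not given in the sources used here. Precision is limited by having 5 arrays. Of 45101 probe sets, 34945 had a single gene symbol in the platform annotation, 932 had several and were not named, 9160 were unnamed here and 64 were controls. All 39 genes were found in RefSeq (GRCm38.p6) by Entrez ID under the same symbol. Each array's 2% trimmed mean, 500.002 as deposited, was set to 500, and log2(signal + 32) was compared with limma 3.58.1 in R 4.3.3 (eBayes with a variance trend), two-sided, adjusted by Benjamini-Hochberg over 14109 genes with a mean of at least 100; the procedure was checked on simulated arrays. Named genes were the 6 highest and 6 lowest differences, the 6 largest SDs between tumours, the 3 brightest and 3 dimmest genes, up to 3 genes a context list, and any ribosomal protein gene outside the pattern or paralog; other members are named only to account for all 39. The members and lists were chosen with earlier results of these data known. Alternatives are given in the closing section.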

Additional observations from a re-analysis of the deposited data

Results flagged for a closer look

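In 3 of the 39 genes 1 tumour stood apart from the other 3, measured as its gap to the nearest tumour over the range of the 4 on the log2 scale; Dixon's 95% critical value was passed. The ratio was 0.950 for Rps28, where medulloblastoma 2 was low, 0.931 for Rps15, where medulloblastoma 4 was high, and 0.862 for Rps3, where medulloblastoma 1 was high. Chance flags about 1 in 20 groups, so a few among 39 genes carry little weight. For Rps28 and Rps15 all tumours remained above the cerebellum, as they did for Rps3.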

How the results depend on the processing

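The count of 28 genes above the cerebellum in every tumour was between 19 (quantile normalization) and 32 (hmk arrays alone, and equal medians) over the alternatives, and between 28 and 30 with 1 tumour left out. Genes below the cerebellum in every tumour numbered 2, but 5 after quantile normalization, 0 with the 31 bright genes alone (added after the data were seen), and 2 or 3 with 1 tumour left out. Calls were 16 higher and 1 lower in the hmk arrays alone, between 0 and 5 higher and between 0 and 1 lower with 1 tumour left out, and 0 elsewhere. The median over all tested members, 0.45, became 0.19 after quantile normalization, 0.64 with equal medians, 0.38 with all probe sets averaged, 0.50 in the hmk arrays and 0.38 with the ken tumours. For the bright genes, 0.49 became 0.19, 0.69 and 0.39 under the first 3 of these. With 1 tumour left out these medians ran from 0.44 to 0.46 and from 0.45 to 0.49.

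After quantile normalization Rps2 was -0.11, Rpl7a -0.20, Rpl37a -0.31 and Rpsa -0.0103. With equal medians Rps6 was 0.13, Rpl41 0.10 and Rpl39 0.0805. With all probe sets averaged Rps9 was -0.0076, Rps3 -0.45, Rpl37a -0.0052, Rpl41 0.39, Eef1d -0.0855, Polr2e -0.0792 and Mycn -0.0679. Without x_at and s_at probe sets Rps20 was -0.17, Rps24 -0.18, Rpl41 0.42 and Polr2e -0.51. Rpl7a (-8e-04) and Rps6 (0.14) turned in the hmk arrays, and Rps25 (-0.0864), Rpl41 (0.36) and Rpl39 (0.0521) with the ken tumours. With 1 tumour left out Rps6 ran from -0.20 to 0.19 (highest without medulloblastoma 2), Rpl39 from -0.20 to 0.0057 (without 3) and Rpl41 from -0.34 to 0.29 (without 4). The cause was not tested. No paired analysis was possible because there is 1 cerebellum. Without the filter on low signals the median over members was 0.42. The 17 genes higher at an unadjusted p under 0.05 (limma) became 5 after quantile normalization, 27 with equal medians, 7 without the variance trend, 8 without the filter, 28 in the hmk arrays and 7 with the ken tumours.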
